A study of Mus musculus with 12 samples.

Results

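The 50 cell cycle and proliferation genes described here were picked by gene symbol from an RNA-seq table of mouse lung, and every one of the 50 was found among its 19726 genes. They form 2 sets: 17 S phase genes, which copy the DNA or open the gate to copying it, and 33 mitotic genes, which are made as cells prepare to divide and act when the chromosomes are parted. All 50 passed the filter on low counts that left 15863 genes for testing. The study asked how lungs respond to busulfan, a DNA-alkylating drug used to clear bone marrow before transplantation, and to alginate oligosaccharides (AOS), short sugar chains made from the alginate of brown algae. The 12 libraries came from total RNA of lung and fall into 4 groups of 3: untreated controls, AOS at 10 mg/kg for 5 weeks, busulfan at 40 mg/kg once, and busulfan once followed by AOS at 10 mg/kg for 5 weeks, called busulfan+AOS below. The labels give the strain of all animals as IRC mouse and give no age, their tissue field reads "Cells" while titles and protocol name lung, and the group that the titles call BA0 was taken as the busulfan group of the design text. Nothing in the labels says whether the 3 libraries of a group came from separate animals, so p-values measure the spread between these libraries only.

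A cell enters S phase when cyclin E and its kinase inactivate the RB family and free E2F factors, which switch on the genes for the replicative helicase, the sliding clamp and the supply of nucleotides. Mitotic genes come on later, when the MuvB complex with B-MYB and then FOXM1 act at a short promoter element called the cell cycle genes homology region (CHR). In resting cells, and after p53 induces the kinase inhibitor p21, MuvB instead joins an RB relative and an E2F in the repressive DREAM complex. Most cells of an adult lung are resting, and after injury the alveolar type 2, endothelial and mesenchymal cells can divide again.

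Promoter stretches are shown first because both sets are known for different promoter elements. Start-site windows from 250 bases before to 50 bases after the start were available from RefSeq (GRCm38.p6, the assembly that mm10 names) for 14 S phase and 28 mitotic genes and for 14624 genes of the table in all. Ccna2, Aurkb, Kif20a, Tpx2, Foxm1, Mcm4, Ccne2 and Gins2 had no entry. The stretches below end at the base before the start site and run 5′ to 3′ on the gene's own strand. Capitals mark the letters TTTGAA or TTTAAA (CHR), CCAAT (the box bound by NF-Y) and TTTGGCGC, TTTCGCGC, TTTCCCGC or TTTGCCGC (E2F), each read on both strands. Matches that share bases were counted separately, as in the run of capitals near the 5′ end of the Mcm6 and Mcm5 stretches, which holds an E2F match on each strand. The 4 mitotic examples are a topoisomerase, the mitotic kinase and both an activator and an enzyme of the anaphase-promoting complex, and the 2 S phase examples are helicase subunits.
The stretches are Top2a at chr11:99024190-99024339 (minus strand), Cdk1 at chr10:69352913-69353062 (minus strand), Cdc20 at chr4:118437344-118437493 (minus strand), Ube2c at chr2:164769779-164769928 (plus strand), Mcm6 at chr1:128359706-128359855 (minus strand) and Mcm5 at chr8:75109349-75109508 (plus strand).
Top2a: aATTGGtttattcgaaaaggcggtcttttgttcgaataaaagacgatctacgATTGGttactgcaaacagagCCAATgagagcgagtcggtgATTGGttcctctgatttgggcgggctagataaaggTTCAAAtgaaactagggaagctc
Cdk1: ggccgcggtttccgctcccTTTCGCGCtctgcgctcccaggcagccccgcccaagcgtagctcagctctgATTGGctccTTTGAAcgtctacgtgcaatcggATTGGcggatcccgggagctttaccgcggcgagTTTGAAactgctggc
Cdc20: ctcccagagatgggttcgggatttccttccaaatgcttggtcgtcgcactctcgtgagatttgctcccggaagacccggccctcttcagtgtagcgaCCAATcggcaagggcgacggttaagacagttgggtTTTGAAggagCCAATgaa
Ube2c: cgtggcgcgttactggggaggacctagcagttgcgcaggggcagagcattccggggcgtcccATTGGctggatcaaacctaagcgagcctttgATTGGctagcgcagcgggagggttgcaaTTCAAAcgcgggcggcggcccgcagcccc
Mcm6: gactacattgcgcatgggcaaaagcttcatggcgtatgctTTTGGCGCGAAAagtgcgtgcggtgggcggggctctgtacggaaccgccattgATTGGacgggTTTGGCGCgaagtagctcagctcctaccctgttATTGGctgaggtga
Mcm5: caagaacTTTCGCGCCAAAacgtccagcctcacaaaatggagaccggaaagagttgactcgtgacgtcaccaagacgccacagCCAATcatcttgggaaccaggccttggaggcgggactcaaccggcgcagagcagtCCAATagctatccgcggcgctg

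Top2a held 1 CHR match and 4 CCAAT matches in the stretch shown. Cdk1 held 2 CHR matches, 2 CCAAT matches and 1 E2F match, and it was the 1 mitotic gene of 28 with an E2F match. Cdc20 and Ube2c each held 1 CHR match and 2 CCAAT matches. Mcm6 held 3 E2F matches and Mcm5 held 2, with 2 CCAAT matches each and no CHR letters in these stretches. The Mcm5 window also holds a CHR match that starts at base -221, upstream of the stretch shown.

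Over the whole windows, 23 of 28 mitotic genes (82.1%) held at least 1 CHR match, against 6 of 14 S phase genes (42.9%) and 24.9% of all matched genes. At least 2 CHR matches were found in 10 of 28 mitotic genes (35.7%), in 0 of 14 S phase genes and in 4.79% of all matched genes. The CCAAT letters occurred in 21 of 28 mitotic genes (75%), in 9 of 14 S phase genes (64.3%) and in 42.4% of all genes. The E2F letters showed the opposite split: 6 of 14 S phase genes held them (Mcm3, Mcm5, Mcm6, Mcm7, E2f2 and Cdt1; 42.9%), against 3.57% of mitotic genes and 3.81% of all genes. The median log2 fold change in the average busulfan comparison, the mean of busulfan against control and busulfan+AOS against AOS, was 0.28 over 23 mitotic genes with CHR letters and 0.30 over the 5 without them. In the S phase set it was 0.01 over 6 genes with them and -0.06 over 8 without. A match of letters describes the window and is not evidence of a bound factor.

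**Figure D1:**
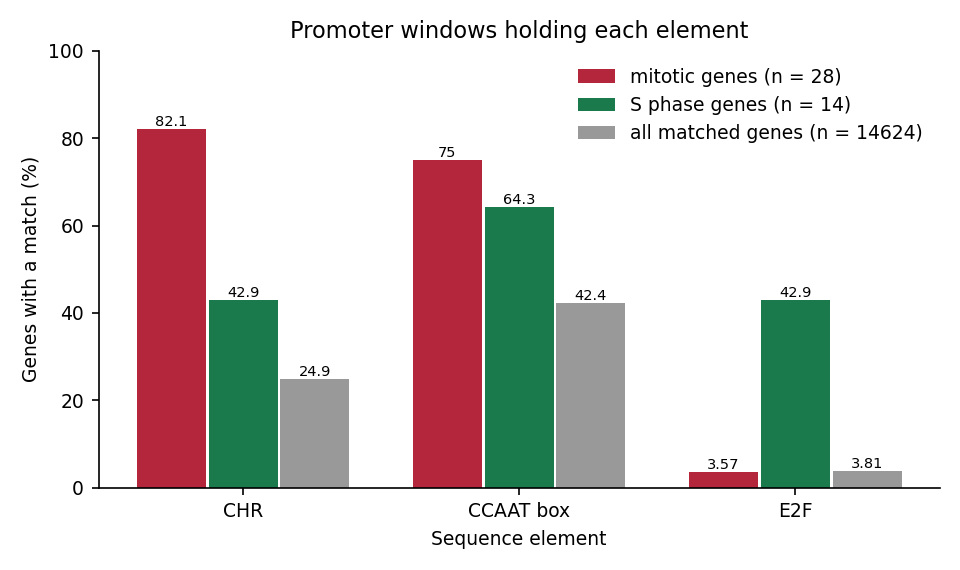
Share of genes, in percent, whose window from 250 bases before to 50 after the RefSeq start held at least 1 match of each element, for 28 mitotic genes (red), 14 S phase genes (green) and all 14624 matched genes (grey). CHR letters were found in 82.1% of mitotic genes and E2F letters in 42.9% of S phase genes.

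Mitotic transcripts were scarce in these lungs, whereas the S phase median lay a little under that of all genes. On the length-corrected scale, the authors' FPKM averaged over 12 libraries, S phase genes ran from 0.668 for Ccne1 to 50.3 for Pcna with a median of 4.22. Mitotic genes ran from 0.498 for Cenpf to 6.80 for Ube2c with a median of 1.49, while the median of all 19726 genes was 5.29. Pcna stood above 92.1% of genes and Mki67, at 3.23 FPKM, above 42.4%. The spread was wider in the mitotic set, whose median level was also lower, at 4.32 CPM against 11.7 CPM in the S phase set. How much of the wider spread was counting error was not tested. The coefficient of variation of CPM within groups had a median of 14.1% over S phase genes (3.44% for Tyms to 48.6% for Mcm6) and 20.9% over mitotic genes (9.52% for Mad2l1 to 37.1% for Melk). The median SE of the log2 fold change in the average busulfan comparison was 0.13 for S phase genes and 0.17 for mitotic genes, against 0.09 over all genes.

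Library totals ran from 16209221 to 17168764 counts, so 3 counts, the limit that a count of 0 allows, equal 0.175 to 0.185 CPM, and this covers counting error only. Lung epithelial markers were abundant in every library: the 6 alveolar type 2 genes summed to between 18166 and 26974 CPM (counts scaled to a common library size, with factors from the trimmed mean of M-values, TMM). Some libraries also held higher levels of genes that mark other tissues. Skeletal muscle genes summed to 3085 CPM in control replicate 2 and 534 CPM in busulfan+AOS replicate 3. Liver genes summed to 836 CPM in control replicate 3 and 582 CPM in busulfan+AOS replicate 1. Fat genes summed to 268 CPM in AOS replicate 1. In the busulfan group the sums of skeletal muscle, liver and fat genes were at most 59.4, 33.0 and 10.7 CPM. Cardiac muscle genes were present in every library, from 33.7 CPM in AOS replicate 1 to 2118 CPM in busulfan replicate 1. Genes of lymphoid progenitors (Rag1, Rag2, Dntt and Ptcra) did not pass the count filter.

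After busulfan the mitotic set stood higher on average, with libraries that overlapped, and the S phase set did not. Averaged over the 33 mitotic genes, the log2 difference from the control mean was -0.11, 0.11 and 0.00 in the 3 controls and -0.08, -0.05 and 0.16 in the 3 AOS libraries. It was 0.32, 0.07 and 0.40 in the busulfan libraries and 0.12, 0.09 and 0.66 in the busulfan+AOS libraries. Replicate 3 of each busulfan-treated group was the highest of its group, replicate 2 of each lay within the range of the untreated libraries, and so did busulfan+AOS replicate 1. The same mean over the 17 S phase genes was -0.04, -0.04 and 0.08 in controls, 0.01, 0.04 and 0.03 with AOS, 0.01, -0.09 and -0.05 with busulfan, and -0.09, -0.13 and 0.18 with busulfan+AOS. Busulfan+AOS replicate 3 was again the highest library, and the other 5 busulfan-treated libraries lay between -0.13 and 0.01. These sums come from whole lung, where more cells of a dividing type and more RNA per cell cannot be told apart.

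Taken within a library, the gap between the sets was wider in the treated lungs. The mitotic mean minus the S phase mean was -0.08, 0.15 and -0.08 in controls, -0.09, -0.08 and 0.13 with AOS, 0.30, 0.15 and 0.46 with busulfan, and 0.21, 0.22 and 0.48 with busulfan+AOS. The group mean was 0.30 ± 0.15 (SD, n = 3) for busulfan and 0.30 ± 0.15 (SD, n = 3) for busulfan+AOS, against an SD of 0.13 among the 3 controls. Busulfan replicate 2 lay at the level of the highest control, and the other 5 treated libraries stood above all 6 untreated ones. No test was made of these scores, because the genes were chosen with results of these libraries known.

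**Figure D2:**
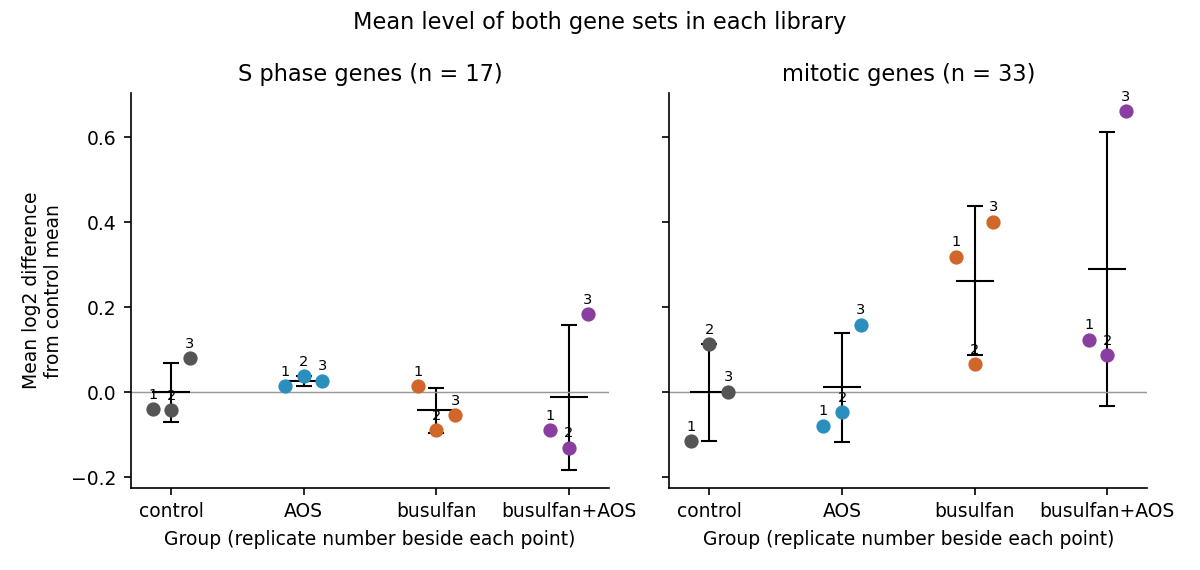
Mean log2(CPM + 0.5) difference from the control mean over 17 S phase genes (left) and 33 mitotic genes (right), 1 point per library with its replicate number, and the mean with SD of each group of 3. The mitotic mean reached 0.40 in busulfan replicate 3 and 0.66 in busulfan+AOS replicate 3, while S phase means lay between -0.13 and 0.18.

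Gene by gene, the direction was shared more widely than single changes could be called. In busulfan against control, 30 of 33 mitotic genes had a fitted log2 fold change above 0 (median 0.36), against 7 of 17 S phase genes (median -0.03) and 49.7% of all genes (median -0.002). In busulfan+AOS against AOS, a comparison that shares no library with the first, 30 of 33 mitotic genes were again above 0 (median 0.32), against 6 of 17 S phase genes (median -0.09) and 48.7% of all genes (median -0.01). Above 0 in both comparisons were 29 of 33 mitotic genes (87.9%) and 4 of 17 S phase genes (23.5%), beside 34.1% of all genes. Below 0 in both were 8 S phase genes (47.1%: Mcm2, Mcm3, Mcm4, Mcm6, Mcm7, Tyms, Tk1 and Cdt1) and 2 mitotic genes (6.06%: Kif4 and Mad2l1), beside 35.8% of all genes. The mitotic median in the second comparison was 0.07, with 23 of 33 above 0, without busulfan+AOS replicate 3. In the first it was 0.22, with 27 of 33 above 0, without busulfan replicate 3. The S phase median changed sign with single libraries: in the second comparison it was 0.01, with 9 of 17 above 0, without busulfan+AOS replicate 2, and in the first it was 0.04, with 9 of 17 above 0, without busulfan replicate 3, and 0.004, with 9 of 17 above 0, without busulfan replicate 1.

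No member passed an adjusted p of 0.05 in either comparison with edgeR's quasi-likelihood test, where 1.21% of all genes passed for busulfan against control and 2.3% for busulfan+AOS against AOS. DESeq2 and limma-voom also called 0 members in both. At an unadjusted p under 0.05, 1 S phase gene (lower) and 4 mitotic genes (higher) stood out in the first comparison, and 1 S phase gene (lower) and 6 mitotic genes (higher) in the second, beside 18.7% and 20.5% of all genes. The average busulfan comparison, which takes the mean of both and uses all 12 libraries, called 2 members, Top2a and Foxm1, both higher. This is 2 of 50 where 11.8% of all genes were called, 7.02% as higher and 4.81% as lower. Both calls were among the 33 mitotic genes, and whether the members' share differs from that of all genes was not tested. The median log2 fold change in this comparison was 0.30 for mitotic genes (30 of 33 above 0), -0.06 for S phase genes (7 of 17 above 0) and -0.01 for all genes (47.8% above 0). At an unadjusted p under 0.05 there were 12 mitotic genes, all higher, and 3 S phase genes, all lower (Mcm3, Mcm4 and Cdt1), beside 29.2% of all genes. DESeq2 called 5 members and limma-voom 0. The 11.8% is the share of all genes called by edgeR, and these 2 counts cannot be read against it.

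**Figure D3:**
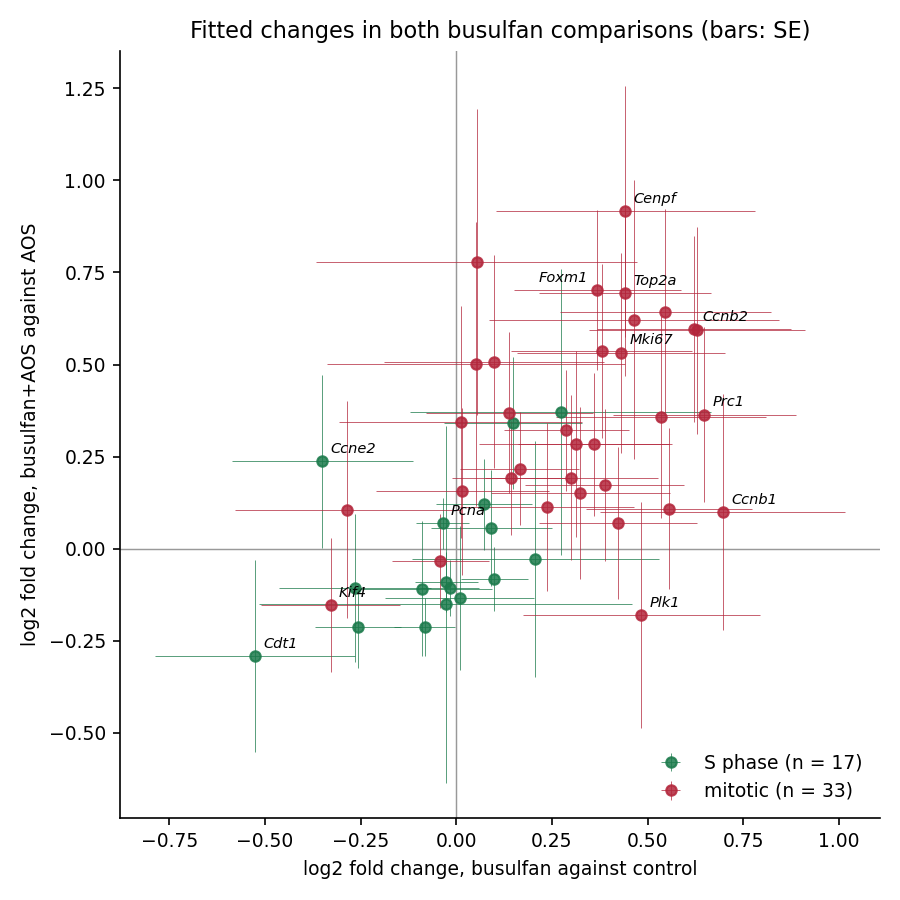
Fitted log2 fold change of each of the 50 genes in busulfan against control (horizontal) and in busulfan+AOS against AOS (vertical), with SE bars, S phase in green and mitotic in red. The upper right field holds 29 of 33 mitotic genes and the lower left holds 8 of 17 S phase genes.

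Values below are CPM per library in the order of replicates 1, 2 and 3, and each change is the log2 fold change of the average busulfan comparison. Among the S phase genes, those of the clamp and of nucleotide supply had changes on both sides of 0 and none was called. Pcna, the sliding clamp that holds polymerases on DNA, stood at 50.96, 61.5 and 57.8 CPM in the controls, 55.7, 55.1 and 60.6 CPM with AOS, 56.7, 55.4 and 53.9 CPM with busulfan and 61.5, 59.1 and 59.1 CPM with busulfan+AOS. The groups overlapped, except that every busulfan+AOS library was above every busulfan library, which held for 4.68% of all genes. Its average busulfan change was 0.02 (SE 0.05, edgeR adjusted p = 0.858), with a 95% interval from -0.09 to 0.13.

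Rrm1, the large subunit of ribonucleotide reductase, which makes deoxynucleotides, stood at 35.8, 36.5 and 39.3 CPM in the controls, 37.9, 34.3 and 34.99 CPM with AOS, 39.8, 40.8 and 36.7 CPM with busulfan and 32.6, 35.5 and 48.2 CPM with busulfan+AOS. Busulfan+AOS replicate 3 was the highest library and the others overlapped, with an average change of 0.10 (SE 0.09, edgeR adjusted p = 0.497). Rrm2, the subunit that is made in S phase, stood at 4.34, 4.87 and 4.73 CPM in the controls, 4.52, 4.30 and 5.26 CPM with AOS, 5.98, 4.49 and 4.96 CPM with busulfan and 5.13, 5.32 and 7.36 CPM with busulfan+AOS. It too was highest in busulfan+AOS replicate 3, the groups overlapped, and the change was 0.24 (SE 0.13, edgeR adjusted p = 0.231). Tyms, which makes thymidylate, stood at 11.99, 11.1 and 10.9 CPM in the controls, 12.3, 12.2 and 12.1 CPM with AOS, 10.7, 11.4 and 11.3 CPM with busulfan and 11.2, 11.3 and 11.8 CPM with busulfan+AOS. All busulfan+AOS libraries lay under all AOS libraries, with the AOS libraries the highest group, and the average change was -0.06 (SE 0.06, edgeR adjusted p = 0.533).

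Of 8 genes that load or activate the helicase (Mcm2 to Mcm7, Gins2 and Cdt1), 7 had an average busulfan change below 0, with a median of -0.09, and none was called. Mcm2, a subunit of the MCM ring, stood at 15.1, 13.3 and 14.8 CPM in the controls, 14.3, 13.7 and 13.4 CPM with AOS, 15.7, 14.3 and 10.7 CPM with busulfan and 10.8, 10.9 and 16.7 CPM with busulfan+AOS. Busulfan replicate 3 and busulfan+AOS replicates 1 and 2 were the lowest, busulfan+AOS replicate 3 was the highest, and the change was -0.10 (SE 0.13, edgeR adjusted p = 0.642). Mcm5 stood at 8.07, 8.39 and 10.3 CPM in the controls, 9.57, 9.57 and 9.73 CPM with AOS, 11.7, 7.29 and 8.03 CPM with busulfan and 7.33, 8.32 and 10.7 CPM with busulfan+AOS. The groups overlapped in both comparisons, and the change was -0.06 (SE 0.14, edgeR adjusted p = 0.799). Mcm7, the member of the ring with the highest FPKM (8.74), stood at 19.2, 20.1 and 19.99 CPM in the controls, 19.2, 22.3 and 20.6 CPM with AOS, 18.8, 19.8 and 20.04 CPM with busulfan and 19.03, 18.3 and 20.3 CPM with busulfan+AOS. Its libraries overlapped in all groups, and the change was -0.06 (SE 0.05, edgeR adjusted p = 0.476).

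Mcm3 came nearest to the threshold among S phase genes. It stood at 17.5, 14.8 and 15.02 CPM in the controls, 13.6, 13.1 and 15.4 CPM with AOS, 13.9, 12.8 and 12.99 CPM with busulfan and 10.6, 13.2 and 12.4 CPM with busulfan+AOS. Every busulfan library was under every control (11.3% of all genes showed this), whereas busulfan+AOS overlapped with AOS, and the average change was -0.23 (SE 0.08, edgeR adjusted p = 0.0804). For Mcm4, Tyms, E2f1 and Cdt1, every busulfan+AOS library was under every AOS library, which is 4 of 17 S phase genes (23.5%) beside 12.8% of all genes. Mcm4 stood at 25.4 CPM or less in the 3 busulfan+AOS libraries and at 25.9 CPM or more in the 3 AOS libraries. Cdt1, the licensing factor that loads the ring, had the lowest fitted change among S phase genes, -0.41 (SE 0.18, edgeR adjusted p = 0.170). Mcm6 varied most within groups, at 9.28, 11.6 and 29.3 CPM in the controls, 20.3, 20.5 and 20.6 CPM with AOS, 13.5, 25.4 and 10.3 CPM with busulfan and 15.4, 10.6 and 29.2 CPM with busulfan+AOS, so that neither direction could be read from it.

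The 4 genes of cyclin E and E2F factors, which start S phase, had a median change of 0.04 and none was called. Ccne1, a cyclin E gene and the S phase gene with the lowest FPKM, stood at 0.964, 0.608 and 1.48 CPM in the controls, 1.25, 1.21 and 0.979 CPM with AOS, 1.55, 0.729 and 1.41 CPM with busulfan and 1.19, 1.32 and 1.94 CPM with busulfan+AOS. These are few counts, the groups overlapped, and the change was 0.32 (SE 0.28, edgeR adjusted p = 0.469) with a 95% interval from -0.29 to 0.93. E2f1, an activator of S phase genes, stood at 12.8, 11.3 and 11.6 CPM in the controls, 11.4, 11.4 and 11.4 CPM with AOS, 13.1, 12.1 and 13.1 CPM with busulfan and 10.2, 10.8 and 11.3 CPM with busulfan+AOS. It was lower in every busulfan+AOS library than in every AOS or busulfan library, and the average change was 0.01 (SE 0.06, edgeR adjusted p = 0.941). E2f2, a second activator, stood at 16.3, 21.3 and 15.9 CPM in the controls, 17.3, 22.5 and 16.7 CPM with AOS, 15.8, 20.95 and 20.3 CPM with busulfan and 18.9, 18.8 and 20.97 CPM with busulfan+AOS. Its groups overlapped, with a change of 0.07 (SE 0.11, edgeR adjusted p = 0.694).

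Among the mitotic genes, the markers of cycling nuclei had changes above 0 in both comparisons. Top2a, the topoisomerase that untangles sister chromatids, stood at 10.6, 13.6 and 13.3 CPM in the controls, 11.8, 12.2 and 12.2 CPM with AOS, 17.5, 12.4 and 21.1 CPM with busulfan and 16.4, 15.8 and 26.3 CPM with busulfan+AOS. Busulfan replicate 2 lay within the control range, the other 2 busulfan libraries lay above it, and every busulfan+AOS library was above every AOS library. Top2a (chr11:98992947-99024199, minus strand) rose in the average busulfan comparison by 0.57 (SE 0.16, edgeR adjusted p = 0.0441). Mki67, which coats mitotic chromosomes and marks cycling cells, stood at 18.5, 24.9 and 27.4 CPM in the controls, 23, 21.6 and 24.96 CPM with AOS, 30.1, 21.7 and 43.6 CPM with busulfan and 27.9, 26.4 and 46.3 CPM with busulfan+AOS. It was highest in replicate 3 of both treated groups, busulfan replicate 2 lay among the controls, and the change of 0.48 (SE 0.19, edgeR adjusted p = 0.127) missed the threshold.

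Foxm1, the transcription factor that drives mitotic genes, stood at 4.22, 5.72 and 5.62 CPM in the controls, 5.17, 4.91 and 5.32 CPM with AOS, 5.68, 5.34 and 9.07 CPM with busulfan and 7.45, 7.78 and 9.84 CPM with busulfan+AOS. Busulfan replicates 1 and 2 lay among the controls, and every busulfan+AOS library was above every AOS library. Foxm1 (chr6:128362994-128375886, plus strand) rose in the average busulfan comparison by 0.54 (SE 0.15, edgeR adjusted p = 0.0476). Both calls rest close to the threshold. No member was called without any 1 of the 3 controls, any 1 of the 3 AOS libraries, busulfan replicate 3 or busulfan+AOS replicate 3, nor with upper-quartile scaling. Foxm1 was also not called without busulfan+AOS replicate 1 or 2 or without the low-count filter, and Top2a not without busulfan replicate 1. Over the fits that leave out 1 library, the adjusted p ran from 0.0239 to 0.1004 for Top2a and from 0.0375 to 0.103 for Foxm1. Without busulfan replicate 3 and busulfan+AOS replicate 3 together, a choice made after seeing the data, the log2 fold change was 0.33 for Top2a and 0.32 for Foxm1 and neither was called.

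**Figure D4:**
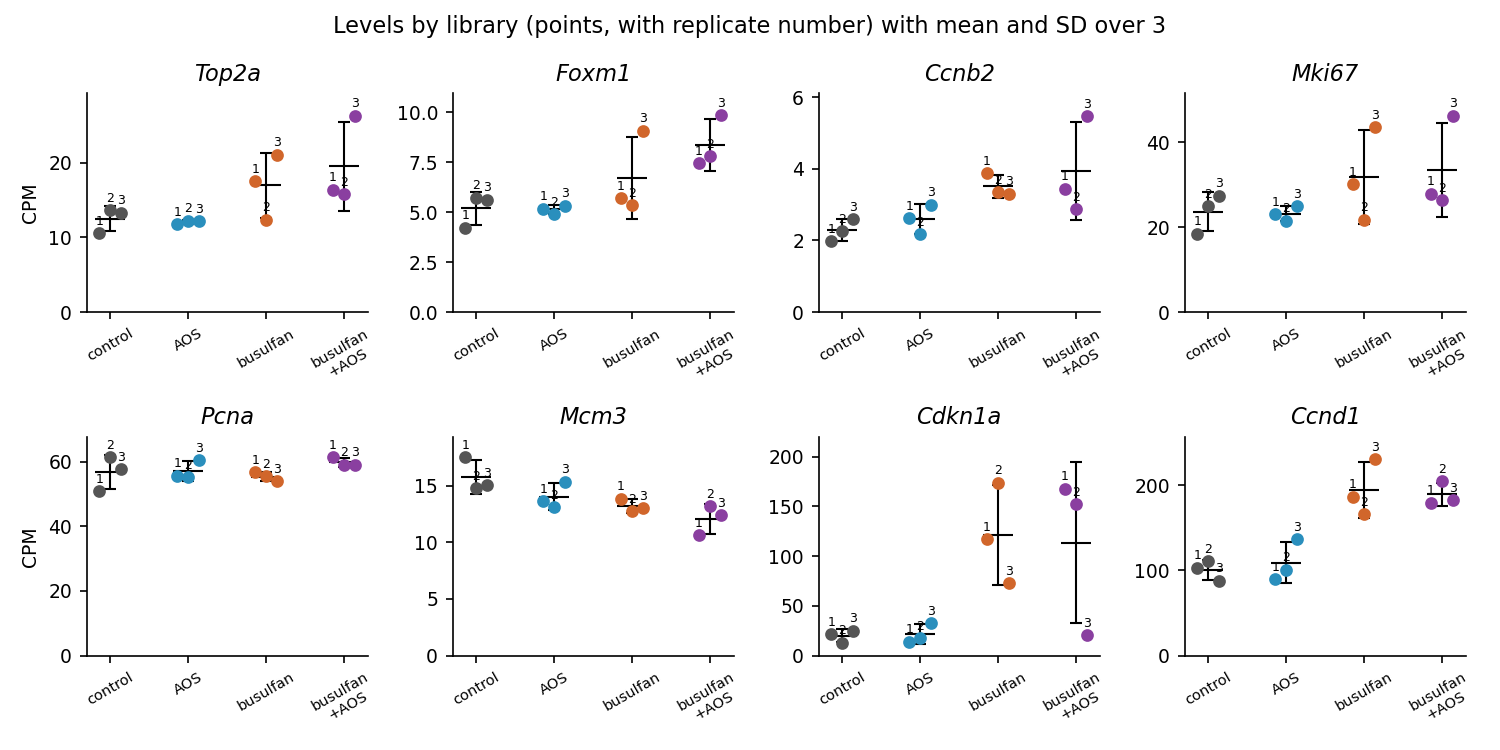
CPM of 6 members and of Cdkn1a and Ccnd1 in each library (points with replicate numbers), with the mean and SD of each group of 3. Top2a reached 26.3 and Cdkn1a 20.3 CPM in busulfan+AOS replicate 3.

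The mitotic cyclins and Cdk1 lay above 0 in both comparisons, without a call. Ccna2, which acts from S phase into early mitosis, stood at 4.82, 7.12 and 5.80 CPM in the controls, 4.81, 5.69 and 6.36 CPM with AOS, 8.73, 5.89 and 8.46 CPM with busulfan and 6.39, 7.36 and 10.7 CPM with busulfan+AOS. Busulfan replicate 2 overlapped with controls, every busulfan+AOS library was above every AOS library, the nearest pair at 6.39 and 6.36 CPM, and the change was 0.46 (SE 0.17, edgeR adjusted p = 0.0996). Ccnb1, a cyclin B gene, stood at 1.27, 2.43 and 1.30 CPM in the controls, 1.78, 2.00 and 1.84 CPM with AOS, 3.41, 1.94 and 2.76 CPM with busulfan and 1.63, 1.79 and 2.59 CPM with busulfan+AOS. It overlapped in both comparisons, with a change of 0.40 (SE 0.23, edgeR adjusted p = 0.270). Ccnb2, the other cyclin B gene here, came nearest to a call after Top2a and Foxm1 at 0.61 (SE 0.18, edgeR adjusted p = 0.0518). Its level was 1.99, 2.25 and 2.60 CPM in the controls, 2.62, 2.18 and 3.00 CPM with AOS, 3.89, 3.34 and 3.31 CPM with busulfan and 3.44, 2.87 and 5.48 CPM with busulfan+AOS, with every busulfan library above every control and busulfan+AOS replicate 2 among the AOS libraries. Cdk1, the mitotic kinase, stood at 2.83, 3.89 and 3.43 CPM in the controls, 2.56, 3.82 and 3.98 CPM with AOS, 4.01, 4.25 and 4.35 CPM with busulfan and 4.01, 2.99 and 5.60 CPM with busulfan+AOS. Every busulfan library was above every control, busulfan+AOS replicate 2 lay among the AOS libraries, and the change was 0.30 (SE 0.18, edgeR adjusted p = 0.292).

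Of the genes of mitotic exit and of the division machinery, none was called by edgeR. Ube2c, the ubiquitin-conjugating enzyme of the anaphase-promoting complex, stood at 4.16, 5.41 and 4.73 CPM in the controls, 3.92, 5.15 and 5.20 CPM with AOS, 6.46, 6.74 and 7.84 CPM with busulfan and 5.20, 3.65 and 6.54 CPM with busulfan+AOS. Every busulfan library was above every control, while busulfan+AOS overlapped with AOS, and the change was 0.33 (SE 0.15, edgeR adjusted p = 0.180). Its exons overlap on the opposite strand with Tnnc2, a muscle troponin gene, and whether counting used strand is not given, so their reads cannot be told apart. Prc1, which bundles the microtubules of the central spindle, stood at 5.48, 7.36 and 6.80 CPM in the controls, 6.42, 8.42 and 7.22 CPM with AOS, 10.3, 7.77 and 12.7 CPM with busulfan and 7.76, 7.84 and 12.8 CPM with busulfan+AOS. Every busulfan library was above every control, AOS replicate 2 exceeded busulfan+AOS replicates 1 and 2, and the change was 0.51 (SE 0.17, edgeR adjusted p = 0.0772). Prc1 was called by DESeq2 (adjusted p = 0.0447) and overlaps with Rccd1 on the opposite strand.

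Aurka, a kinase of the spindle poles, stood at 2.23, 2.49 and 2.84 CPM in the controls, 3.21, 2.67 and 2.75 CPM with AOS, 3.59, 3.04 and 2.70 CPM with busulfan and 2.63, 2.93 and 4.30 CPM with busulfan+AOS. Its groups overlapped in both comparisons, with a change of 0.25 (SE 0.16, edgeR adjusted p = 0.327). Cenpa, the histone variant that marks centromeres, stood at 4.34, 5.53 and 3.55 CPM in the controls, 3.92, 4.06 and 4.77 CPM with AOS, 5.26, 3.46 and 4.84 CPM with busulfan and 3.82, 4.79 and 5.60 CPM with busulfan+AOS. It overlapped likewise, and its change was 0.09 (SE 0.16, edgeR adjusted p = 0.758) with a 95% interval from -0.27 to 0.44. The other centromere and kinetochore genes (Birc5, Cenpe, Cenpf, Cdca8, Ndc80 and Nuf2) all had average changes above 0, up to 0.68 for Cenpf (SE 0.24, edgeR adjusted p = 0.0912). In busulfan against control, 9 of 33 mitotic genes had every busulfan library above every control (27.3%, beside 11.8% of all genes): Ccnb2, Cdk1, Cdc20, Plk1, Cenpe, Prc1, Ube2c, Cdca8 and Hmmr. In busulfan+AOS against AOS, 5 of 33 did (15.2%, beside 14.5% of all genes): Mki67, Top2a, Ccna2, Bub1 and Foxm1. The 2 lists share no gene, and 0 of 33 mitotic genes had all 6 busulfan-treated libraries above all 6 untreated ones, beside 3.93% of all genes. Likewise 0 of 17 S phase genes had all 6 treated libraries under all 6 untreated ones, beside 2.61% of all genes.

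The mitotic genes that went against the set were few. Kif4, a chromosome-bound kinesin on the X chromosome, had an average change of -0.24 (SE 0.13, edgeR adjusted p = 0.241), and Cdca3, which helps to destroy the Wee1 kinase, one of -0.09 (SE 0.21, edgeR adjusted p = 0.809). Mad2l1, the spindle checkpoint protein, had the smallest spread within groups of the 33 mitotic genes and a change of -0.04 (SE 0.09, edgeR adjusted p = 0.813). Plk1, another kinase of mitotic entry, was higher in every busulfan library than in every control and also in every AOS library than in every control. Its busulfan change was 0.48 (SE 0.31) without AOS and -0.18 (SE 0.31) with it. Of the 15 members whose exons overlap with another gene in the GENCODE M21 annotation, 13 overlap on the opposite strand, Kif4 and Plk1 among them. The other 2 are the called genes Top2a, which shares 122 bases of exon with Gm23451 on its own strand, and Foxm1, which shares 144 with Tex52 and 97 with Gm44596 on its own strand. How reads on shared exons were counted is not given in the sources used here.

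Busulfan+AOS replicate 3 stood apart from the other libraries. It held the highest level of 26 of 33 mitotic genes and of 5 of 17 S phase genes among the 12 libraries, beside 6.48% of all genes tested, and its 33 mitotic genes summed to 267 CPM. The sum was 142, 171 and 163 CPM in controls, 149.9, 152 and 175 CPM with AOS, 203, 163 and 232 CPM with busulfan and 179 and 172 CPM in the other busulfan+AOS libraries. In the same library Cdkn1a, the gene of the kinase inhibitor p21, stood at 20.3 CPM, whereas the other 5 busulfan-treated libraries held 72.9 to 174 CPM and the untreated ones 12.9 to 32.8 CPM. Over the 3 busulfan libraries the order was also opposite, with Cdkn1a at 117, 174 and 72.9 CPM where the mitotic sum was 203, 163 and 232 CPM. With AOS, however, both ran in the same order (Cdkn1a at 14.03, 17.2 and 32.8 CPM), and busulfan+AOS replicate 1 was above replicate 2 in both (Cdkn1a at 168 and 152 CPM). In the controls the order was mixed, with Cdkn1a at 21.6, 12.9 and 25.1 CPM. Control replicate 2 had the lowest Cdkn1a and the highest mitotic sum of its group, while replicate 3 was above replicate 1 in both. This is a description of 12 libraries, and it was chosen after the values were seen.

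**Figure D5:**
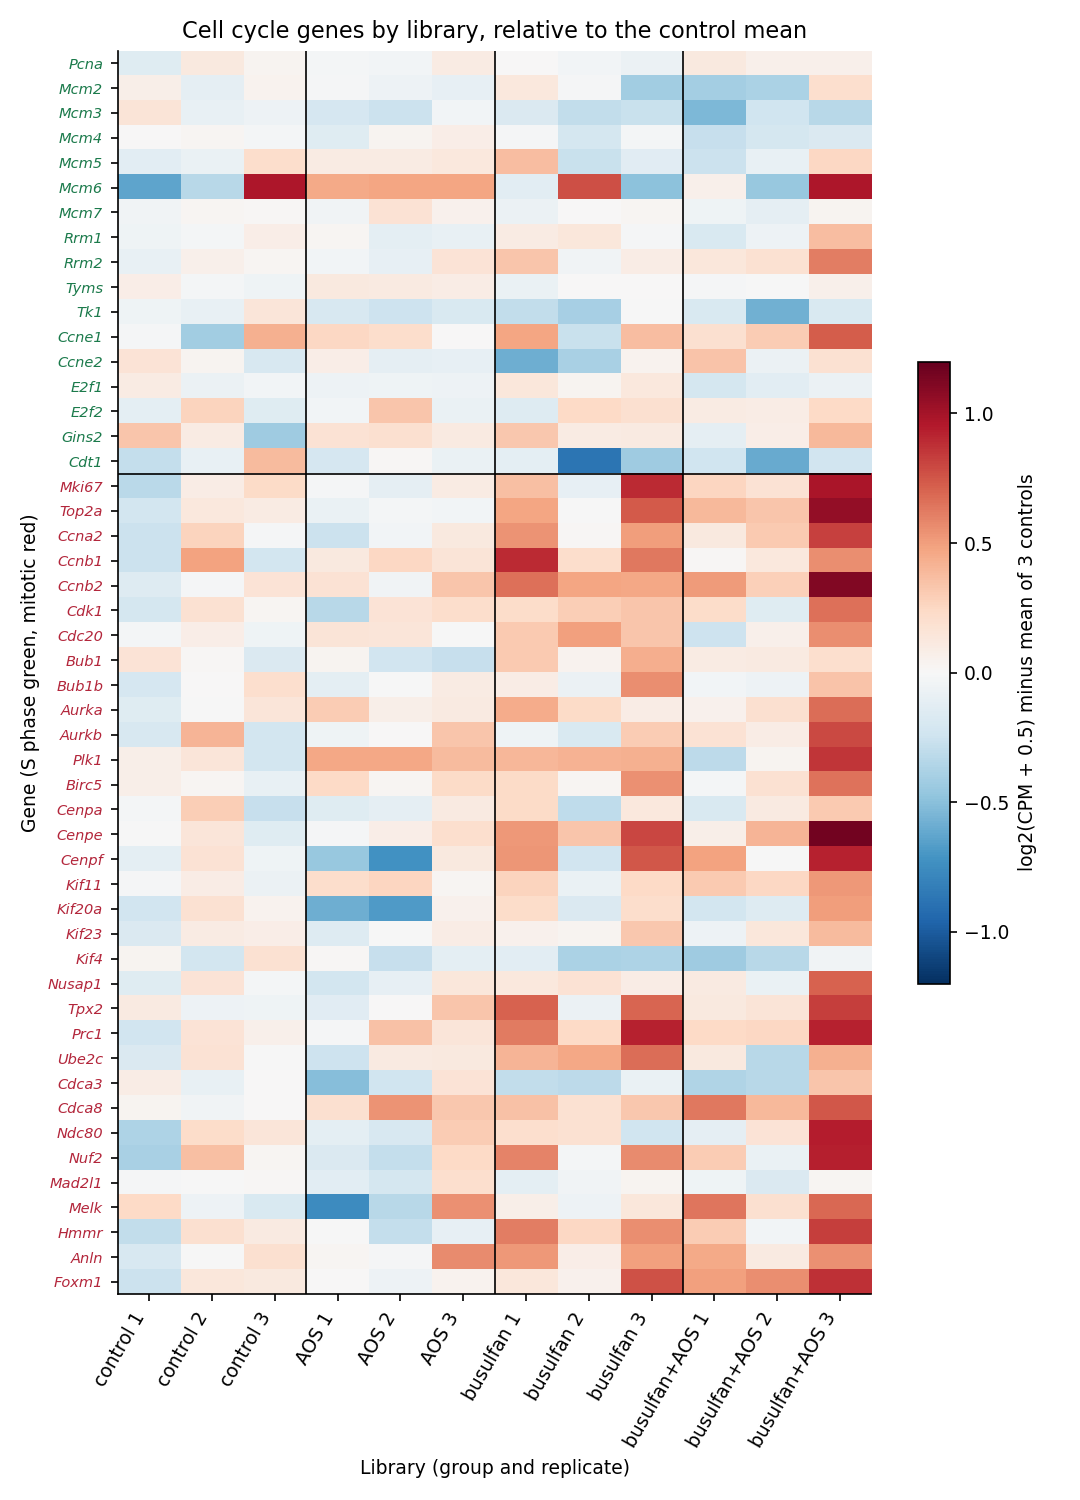
log2(CPM + 0.5) minus the mean of the 3 controls for 17 S phase genes (top, green) and 33 mitotic genes (bottom, red) in each of 12 libraries. Busulfan+AOS replicate 3 was the highest library for 26 of 33 mitotic genes, and Mcm6 varied within groups.

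No member was called in the comparisons of AOS. In AOS against control, 14 of 33 mitotic genes were above 0 (median -0.01), beside 48.5% of all genes, and the S phase median was 0.01. With busulfan present, busulfan+AOS against busulfan gave a median of 0.05 for mitotic genes (21 of 33 above 0, beside 49% of all genes) and -0.01 for S phase genes. edgeR called 0 members in both comparisons, as did DESeq2 and limma-voom, and 0 (0%) of all genes. At an unadjusted p under 0.05 there were 1 mitotic gene in the first and 2 S phase genes in the second, beside 4.05% and 6.34% of all genes. In AOS against control, every AOS library was above every control for Tyms, Plk1 and Cdca8 (3 of 50, beside 4.73% of all genes) and under every control for Tk1 (1 of 50, beside 4.78%). In busulfan+AOS against busulfan the same held upwards for Pcna, Cdca8 and Melk (3 of 50, beside 4.68%) and downwards for E2f1 (1 of 50, beside 5.56%). The average of both AOS comparisons called 0 members and 0 of all genes with edgeR, and 0 members with DESeq2 and limma-voom, with 2 members at an unadjusted p under 0.05 (5.34% of all genes). The interaction, which asks whether the busulfan change differs with AOS, also called 0 members by edgeR, DESeq2 and limma-voom, and 0 at an unadjusted p under 0.05 (4.79% of all genes), with medians of -0.02 for S phase and 0.05 for mitotic genes. Busulfan+AOS against control, a comparison that shares its controls with the first, called 0 members by edgeR, DESeq2 and limma-voom, where edgeR called 4.08% of all genes. At an unadjusted p under 0.05 it had 2 S phase and 7 mitotic genes, beside 21.2% of all genes, and the nearest were Cdca8 (edgeR adjusted p = 0.0665) and Mcm3 (edgeR adjusted p = 0.0843). Without busulfan replicate 3 it called 1 member.

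Related genes outside the 50 were counted in the same way in the average busulfan comparison, in which 47.8% of all genes were above 0, 7.02% were called higher, 4.81% were called lower and 29.2% had an unadjusted p under 0.05. Of 39 tested genes of a second mitotic list, 34 were above 0 (median 0.28) and 5 rose: Kif18b at 0.99 (SE 0.21, edgeR adjusted p = 0.0161), Ttk at 0.97 (SE 0.24, edgeR adjusted p = 0.0260), Ckap2 at 0.90 (SE 0.22, edgeR adjusted p = 0.0267), Cdca2 at 0.70 (SE 0.19, edgeR adjusted p = 0.0366) and Sgo1 at 0.91 (SE 0.25, edgeR adjusted p = 0.0434). They are a kinesin, a checkpoint kinase, a spindle protein, a phosphatase anchor and the guardian of centromere cohesion. Their levels were low, with means over 12 libraries of 1.43, 1.25, 3.33, 2.46 and 1.38 CPM in that order. Sgo1 stood at 0.482 CPM in control replicate 1. Of 34 further replication genes, 10 were above 0 (median -0.08) and 3 fell: Gmnn, the inhibitor of Cdt1, at -0.85 (SE 0.17, edgeR adjusted p = 0.0128), Orc3, an origin recognition subunit, at -0.20 (SE 0.04, edgeR adjusted p = 0.0132), and Pola2, a subunit of the priming polymerase, at -0.28 (SE 0.08, edgeR adjusted p = 0.0489). None of the 13 subunits of the anaphase-promoting complex was called by edgeR, with 0 at an unadjusted p under 0.05. Without busulfan replicate 3 and busulfan+AOS replicate 3, none of Kif18b, Ttk, Ckap2, Cdca2, Sgo1, Gmnn and Orc3 was called, with log2 fold changes of 0.87, 0.79, 0.65, 0.47, 0.68, -0.77 and -0.19 in that order, while Pola2 kept its call. Leaving out any 1 of several single libraries also ended calls. That of Ttk was lost without control 1 or 2, AOS 1 or 2, busulfan 3 or busulfan+AOS 3, and that of Ckap2 without control 1 or 3, AOS 1 or 2, busulfan 3, or busulfan+AOS 2 or 3. That of Cdca2 was lost without any control, AOS 1 or 2, busulfan 1 or 3, or busulfan+AOS 2 or 3. Sgo1 kept its call only without control 3, and Pola2 only without busulfan+AOS 3.

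Upstream of both sets, a list of 6 G1 cyclin and kinase genes held the cyclin D genes, whose proteins start the inactivation of RB. In the average busulfan comparison the cyclin D genes were called higher, beside 7.02% of all genes. In each of the 2 separate busulfan comparisons, 4 of the 6 listed genes were above 0 and 2 below. The lowest was Cdk6 at -0.15 in busulfan against control and Cdk4 at -0.10 in busulfan+AOS against AOS. Ccnd1 stood at 103, 111 and 87.99 CPM in the controls, 89.9, 101 and 137 CPM with AOS, 186, 166 and 230.2 CPM with busulfan and 179, 205 and 183 CPM with busulfan+AOS. Every busulfan-treated library was above every untreated one, which held for 3.93% of all genes, and Ccnd1 rose by 0.87 (SE 0.12, edgeR adjusted p = 0.00250). Ccnd2 stood at 176, 162 and 211 CPM in the controls, 165, 213 and 205 CPM with AOS, 281, 353 and 332 CPM with busulfan and 291, 404 and 363 CPM with busulfan+AOS. It was likewise higher in all 6 treated libraries and rose by 0.84 (SE 0.11, edgeR adjusted p = 0.00189). Ccnd1 and Ccnd2 were also called in busulfan against control (edgeR adjusted p = 0.0306 and 0.0361) and in busulfan+AOS against AOS (edgeR adjusted p = 0.0362 and 0.0227). The shares of all genes called there were 1.21% and 2.3%.

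For Ccnd3 the change was 0.34 (SE 0.09, edgeR adjusted p = 0.0310), higher in the treated lungs, and this call was lost without control replicate 2, AOS replicates 1 or 2, busulfan replicate 3 or busulfan+AOS replicates 1 or 2. Of 7 CDK inhibitor genes, Cdkn1a alone was called, at 2.51 (SE 0.48, edgeR adjusted p = 0.0106). In the separate comparisons none of the 7 was called. The lowest edgeR adjusted p among them was 0.0899 in busulfan against control and 0.0799 in busulfan+AOS against AOS. A further list held 18 genes of the RB and DREAM complexes and related E2F genes. Of these, E2f7, a repressor of E2F targets, rose by 0.79 (SE 0.18, edgeR adjusted p = 0.0195) and Tfdp1, the partner of E2F factors, by 0.26 (SE 0.06, edgeR adjusted p = 0.0197), beside 7.02% of all genes called higher, while 13 of the 18 were above 0 (median 0.09). The call of Tfdp1 was lost without control replicate 1 or control replicate 2, and neither E2f7 nor Tfdp1 was called without busulfan replicate 3 and busulfan+AOS replicate 3 together (0.69 and 0.21).

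Markers of some cell types moved in the average busulfan comparison, in which edgeR called 7.02% of all genes higher and 4.81% lower. Whether the share called in any list differs from that of all genes was not tested. All 8 B cell genes fell in the average busulfan comparison, their sum running from 111 to 246 CPM in controls, 118 to 171 CPM with AOS, 55.0 to 80.5 CPM with busulfan and 31.6 to 57.9 CPM with busulfan+AOS. Of 5 alveolar type 1 genes 4 rose, their sum going from 2674 to 2851 CPM in controls, 2495 to 2738 CPM with AOS, 3259 to 3394 CPM with busulfan and 2947 to 3226 CPM with busulfan+AOS. Of 9 tested erythroid precursor genes 3 fell, with sums of 5862 to 11751 CPM in controls, 8186 to 11410 CPM with AOS, 6140 to 10573 CPM with busulfan and 2710 to 4476 CPM with busulfan+AOS. In busulfan against control all 9 were below 0 and 0 were called, beside 1.21% of all genes. In busulfan+AOS against AOS 2 of the 9 were called, both lower, beside 2.3% of all genes. There 2 others were above 0, Hbb-bs at 8.93. Klf1, Ahsp and Rhag of this list were not tested. The sums take in the globin genes Hba-a1, Hbb-bs and Hbb-bt, whose part was not separated, so they are not a measure of precursors alone. Single genes were called in the lists of NK cells (1 of 5 lower), club cells (1 of 4 lower), plasma cells (1 of 6 higher), skeletal muscle (1 of 7 lower), alveolar macrophages (2 of 8 higher) and capillary endothelium (1 of 6 in each direction). The lists of T cells, neutrophils, platelets, monocytes, alveolar type 2, ciliated, fibroblast, smooth muscle, liver, fat and cardiac muscle genes had 0 calls. No listed gene in the table was at 0 in every library, and their part in the results on the 50 genes was not tested.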

How the data were processed

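The authors deposited 1 table for the series with estimated counts per gene and library, not normalized, and FPKM values (fragments scaled by gene length and library size) of their own making, a unit inferred from the values. Per the submitters' processing notes the reads were set against mm10. For aligner, counting program and use of strand, nothing is given in the sources used here. Group means in the deposited table were not used.

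After rounding the estimated counts to whole numbers, filterByExpr and TMM scaling were applied and 1 mean per group was fitted over all 12 libraries in edgeR 4.0.16 under R 4.3.3 (quasi-likelihood F test, Benjamini-Hochberg adjustment over 15863 genes, calls at an adjusted p under 0.05). This fit, DESeq2 and limma-voom were tested on simulated counts with absolute log2 fold changes of 1 or 2, larger than most changes reported here. The other alternatives were not tested in this way. Other tools tried were DESeq2 1.42.0 and limma-voom 3.58.1. Other scalings were upper-quartile factors and median-of-ratios factors. Other filters were none, or 1 CPM in at least 3 libraries. The design was varied by fitting only 2 groups, by a block for the replicate number and by omitting each library, and the call by asking for an absolute log2 fold change of 1 or more. Library scores are means of log2(CPM + 0.5) differences and were not tested. No 2 libraries of a group held identical values. Figures used Python 3.11.15, pandas 2.3.3, numpy 2.4.6 and matplotlib 3.10.9. Promoter windows came from RefSeq GRCm38.p6.

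The 50 genes, the lists of related genes and markers, and the average busulfan comparison were chosen with earlier results of these data known. Values in every library were given for called members, the member with the highest FPKM in each role and a set of anchor genes. Ccnb2, Mcm3 and Mcm6 were added to these after their values were seen. Of the related lists, called genes and Cdkn1a were named.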

Additional observations from a re-analysis of the deposited data

How the results depend on the processing

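The mitotic median of the average busulfan comparison stayed above 0 under every alternative run, from 0.22 to 0.36 with 1 library left out and 0.18 (26 of 33 above 0) without busulfan replicate 3 and busulfan+AOS replicate 3. The S phase median ran from -0.07 to 0.003 with 1 library left out, and it was above 0 only without busulfan+AOS replicate 2. The count of 2 members called in that comparison was 5 with DESeq2, 1 without the low-count filter, and 0 with limma-voom, with upper-quartile factors, when an absolute log2 fold change of 1 or more was required, and without both libraries just named. The share of all genes called by the main fit is no background for the DESeq2 count. Leaving out 1 library gave 0 to 2. For busulfan+AOS against control, leaving out 1 library gave 0 to 1 member. The other comparisons had 0 members called under every alternative run. With upper-quartile factors the median of all genes lay at -0.05 in place of -0.01, calls among all genes split into 767 higher and 1092 lower in place of 1114 and 763, and 30 of 33 mitotic and 5 of 17 S phase genes were above 0. Same-numbered libraries did not deviate together (18 pairs, r from -0.28 to 0.21, 2 of them over 0.1), and 2 of 12 libraries correlated best with their own number. With the replicate block, 2 members were called in the average busulfan comparison and 0 in the others. The median level was 4.32 CPM over the mitotic and 11.7 CPM over the S phase set.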
